A study of Mus musculus with 9 samples.

Results

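The genes described here encode the nuclear subunits of the oxidative phosphorylation system, the 5 enzyme complexes of the inner mitochondrial membrane that make most of a cell's ATP. Members were chosen by symbol among the probe sets whose annotation gave a single gene: symbols starting with Ndufa, Ndufb, Ndufc, Ndufs or Ndufv (complex I), Uqcr (complex III), Cox4 to Cox8 (complex IV) or Atp5 (complex V), and Sdha to Sdhd (complex II), leaving out the assembly factors whose symbols start with Ndufaf. This gave 82 of the 18193 genes on the array, of which 36 fell to complex I, 4 to complex II, 8 to complex III, 17 to complex IV and 17 to complex V. Where a gene had several probe sets, the one with the highest mean intensity stands for it. Placement follows the symbol, so Ndufa4, whose protein sits in complex IV, and its paralogue Ndufa4l2 are counted under complex I, and Cox7a2l, a factor that joins complexes III and IV, under complex IV.

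RNA from the central cornea was hybridised to Affymetrix arrays in 3 inbred mouse strains, SJL/J (SJL), C57BLKS/J (KS) and C57Bl/6J (B6), with 3 arrays each. All mice were adult males aged 4 months, and no treatment or transgene is named. The labels call the cornea of KS thin and that of SJL thick and give no thickness for B6, so thickness and the rest of the strain background cannot be told apart. Punches of 2 mm from the left and right eye of a mouse were combined, so each array stands for 1 animal and holds epithelium, stroma and endothelium together.

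Complexes I and II pass electrons from NADH and succinate to ubiquinone, complex III hands them to cytochrome c, and complex IV reduces oxygen with them. Complexes I, III and IV pump protons across the inner membrane, and complex V, the ATP synthase, lets them flow back to drive ATP synthesis. Complex II is built from nuclear genes alone, whereas the others also hold subunits encoded by mitochondrial DNA, so the nuclear genes have to be expressed in balance with one another and with the mitochondrial genome. In the cornea this supply of ATP serves, among other uses, the fluid pump of the endothelium, which keeps the stroma clear.

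Promoters of respiratory chain genes are known for binding sites of the transcription factor NRF1, which drives many of them together, and the set is therefore shown first by that sequence. RefSeq promoter sequences (assembly GRCm38.p6, which is the C57BL/6J genome and not that of the other strains) were matched to 67 of the 82 members by symbol, with 72 promoters in all. Within the 250 bases before the transcription start, the NRF1 motif was found on either strand in 12 of these 72 promoters (16.7%), against 3.74% of all 32851 promoters in the table. The ETS motif CGGAAGT was found in 8 member promoters (11.1%) against 4.92%, the YY1 motif AAGATGGCG in 1 (1.39%) against 0.606%, and the ERR motif TCAAGGTCA in 1 (1.39%) against 0.387%. Overlaps between motifs were not removed, and a match describes letters in the window, not binding. The NRF1 matches lay in 11 genes, 4 of complex I, 2 of complex II, 1 of complex IV and 4 of complex V. The lines below give windows of 30 bases around the motif in capitals, 5′ to 3′ on the strand of the gene, for 8 of these genes. They are shown because subunits of 4 different complexes share the element, while the flanks differ from gene to gene. Ndufa5, Sdha, Cox6a1 and Atp5h carry the same letters in capitals, and so do Atp5g2 and Atp5k. The match of Ndufa8 reads on the opposite strand.
Ndufa5, chr6:24527697-24527726, minus strand: tgtgtgagctGCGCAGGCGCaaatctacct
Ndufa8, chr2:36049349-36049378, minus strand: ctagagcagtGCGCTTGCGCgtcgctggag
Sdha, chr13:74350276-74350305, minus strand: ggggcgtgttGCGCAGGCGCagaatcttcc
Sdhd, chr9:50603909-50603938, minus strand: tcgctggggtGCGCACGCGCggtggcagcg
Cox6a1, chr5:115349056-115349085, minus strand: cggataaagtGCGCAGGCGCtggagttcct
Atp5g2, chr15:102671070-102671099, minus strand: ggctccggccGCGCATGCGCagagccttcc
Atp5h, chr11:115420041-115420070, minus strand: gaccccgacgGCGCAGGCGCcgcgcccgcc
Atp5k, chr5:108434430-108434459, minus strand: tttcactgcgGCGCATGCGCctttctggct

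Of these 11 genes, Ndufs5 alone was called different between strains on its brightest probe set (below), and Ndufb4 was too dim to be tested. A further probe set of Atp5c1 was also called (below). The full 250 bases before the start are printed for Ndufs5 and Sdhb, which are 2 of the 3 members that differed between strains. Ndufs5 carries 1 NRF1 match, in capitals, from 98 to 89 bases before the start, and Sdhb carries none of the 4 motifs in this window. The GC content is 56.4% for Ndufs5 and 59.2% for Sdhb. The promoter of Uqcrq, the third of them, is not shown here.
Ndufs5, chr4:123718187-123718436, minus strand: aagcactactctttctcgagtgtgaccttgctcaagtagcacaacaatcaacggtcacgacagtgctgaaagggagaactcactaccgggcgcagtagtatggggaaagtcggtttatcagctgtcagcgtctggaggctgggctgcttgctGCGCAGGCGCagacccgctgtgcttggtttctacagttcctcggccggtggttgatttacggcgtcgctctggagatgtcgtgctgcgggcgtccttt
Sdhb, chr4:140961021-140961270, plus strand: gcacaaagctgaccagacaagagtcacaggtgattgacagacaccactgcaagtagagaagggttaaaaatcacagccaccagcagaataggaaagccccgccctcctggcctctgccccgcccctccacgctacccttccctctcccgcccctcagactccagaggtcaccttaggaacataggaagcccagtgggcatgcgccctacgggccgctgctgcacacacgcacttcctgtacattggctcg

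The arrays carried the tissue they were labelled with. Krt12, the keratin of the corneal epithelium, lay between 26007 and 29278 on all 9 arrays, Kera, the stromal proteoglycan keratocan, between 11129 and 13183, and the listed markers of the 3 corneal layers rose above the low end of the scale on every array, except the endothelial marker Car2, which was near it on 8 arrays and at 69 on KS replicate 3. Some listed markers differed between strains in limma (tests below). In SJL against KS, Dcn (-0.37, adjusted p = 0.0168) and Aldh1a1 (-0.40, 0.0143) were called lower and Thbd higher (0.87, 0.0469). Against B6, SJL was lower for Aldh1a1 (-0.49, 0.00529) and higher for Krt14 (0.37, 0.0457). The other tested markers of the 3 layers were not called in any comparison. The upper quartile of intensity ran from 380 to 398 over the arrays. Correlations between arrays ran from 0.982 to 0.994 within a strain and from 0.955 to 0.980 between strains. In KS replicate 3, the summed intensity of 12 photoreceptor genes was 6590, against 441 to 501 on the other 8 arrays. In B6 replicate 3, the probe sets at the 3′ end of the control transcripts exceeded those at the 5′ end by 1.55 (log2) for Gapdh and 1.56 for Actb, against 0.73 to 1.17 and 0.86 to 1.10 on the other 8 arrays. These arrays stand apart. The median of the members in KS against B6 is given with and without each of them, and Cox6b2 and Cox7a2l with and without the array concerned.

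Subunit transcripts were bright and steady. Of the 82 members, 68 had an intensity of at least 1000 on every array, in a table whose median intensity was 7.48. The fit could test 75 of them (34 of 36 in complex I, 4 of 4 in complex II, 8 of 8 in complex III, 12 of 17 in complex IV and 17 of 17 in complex V). The 7 others, Ndufb1, Ndufb4, Cox4i2, Cox6a2, Cox7b2, Cox8b and Cox8c, stayed below 16 on all arrays, near the low end of the scale, where an intensity is only an upper bound. For the members tested, the median standard deviation within a strain was 0.12 (log2), against 0.17 for all 10956 genes tested and 0.13 for the 4641 genes with a mean of 1000 or more.

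Strain differences in single subunit genes were few. The moderated F-test of limma over the 3 strains, with Benjamini-Hochberg adjustment over all 22519 probe sets tested, called 3 of the 75 members (4%) at an adjusted p under 0.05, namely Uqcrq, Sdhb and Ndufs5. The same rule called 19.4% of all genes tested and 14.4% of genes with a mean intensity of 1000 or more, a background chosen after seeing that most members are bright. At an unadjusted p under 0.05 the F-test found 7 members (9.33%), against 33.9% of all genes. The share of members called was thus below that of the array as a whole. Leaving out 1 array changed the count of 3 to 1 (Uqcrq) without B6 replicate 1, KS replicate 2, KS replicate 3 or SJL replicate 3, and to 5 without SJL replicate 2. All log2 differences are on the scale of log2(intensity + 10), all tests are two-sided, and with 3 arrays on each side the smallest p of an exact permutation test is 0.1.

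In SJL against KS, the comparison of the thick with the thin cornea, limma called 1 of 75 members higher and 0 lower (5 of 75 at an unadjusted p under 0.05, against 28.3% of all genes). The background in this comparison was 14.9% of genes called, 6.8% higher and 8.08% lower, and 10.8% of genes with a mean of 1000 or more. The median difference of the members was 0.02, as it was over all genes (0.02), and 44 of 75 members were positive, against 53% of genes. For 68 members (90.7%) the 95% interval of the difference lay within a 1.5-fold change in either direction. This held for 56.7% of genes and for 77.1% of genes with a mean of 1000 or more. Member differences ran from -0.55 (Cox6b2) to 0.62 (Ndufs5). By complex, the medians were 0.02 in complex I, 0.11 in complex II, 0.09 in complex III, -0.01 in complex IV and 0.0048 in complex V.

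KS against B6 gave 1 member called higher (Uqcrq) and 0 lower in limma, with 6.27% of all genes called, 3.4% higher and 2.87% lower, and 3.94% of genes with a mean of 1000 or more (8 members at an unadjusted p under 0.05, or 10.7%, against 20.9% of genes). SJL against B6 gave 2 called higher (Sdhb and Uqcrq) and 0 lower, with 16.1% of genes called, 8.39% higher and 7.68% lower, and 12.6% of genes with a mean of 1000 or more (7 members at an unadjusted p under 0.05, or 9.33%, against 30% of genes). Both comparisons share the 3 B6 arrays, so a low value on a B6 array enters both. The median member difference was 0.10 for KS and 0.11 for SJL, each against B6, where the medians over all genes were 0.01 and 0.02. Positive differences were found for 58 and 59 of 75 members, against 52.8% and 53.7% of genes. The 95% interval lay within 1.5-fold for 63 members (84%) for KS and for 64 (85.3%) for SJL, against 62.1% and 55.7% of genes. Among genes with a mean of 1000 or more the shares were 81.6% for KS, near that of the members, and 75.5% for SJL. Without SJL replicate 2, limma called 2 members in KS against B6, Uqcrq and Uqcr10, and without any 1 of the 6 arrays of these strains it called 0 there.

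**Figure D1:**
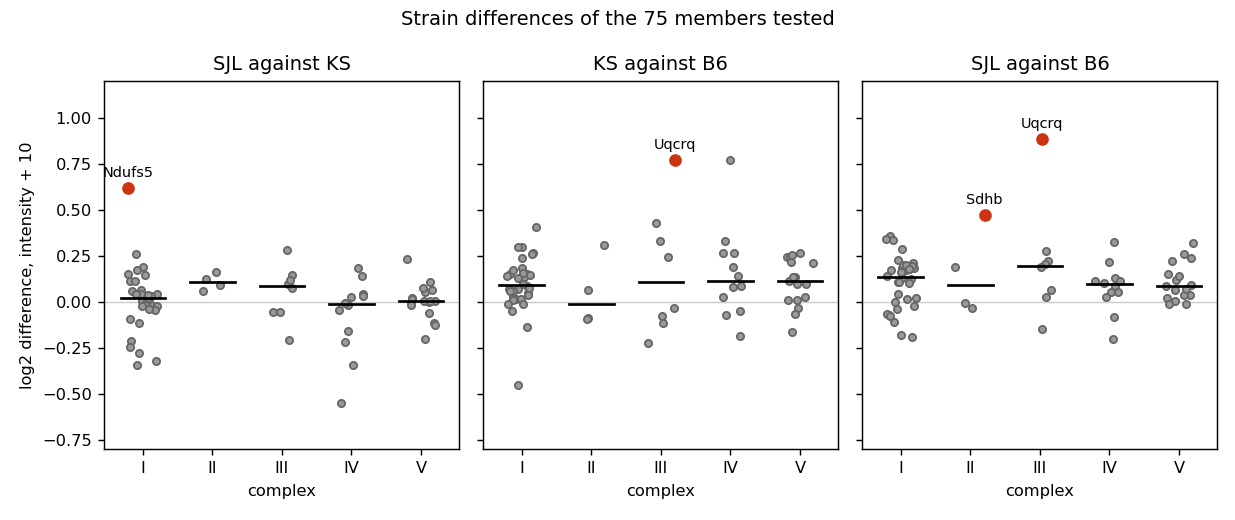
Log2 differences (log2 of intensity + 10) of the 75 members tested in 3 strain comparisons, by complex; each point is 1 gene, black bars are medians of a complex, and red named points were called by limma at an adjusted p under 0.05. Most points lie near 0, medians in SJL against KS lie between -0.01 and 0.11, and Uqcrq stands highest in SJL against B6 at 0.88.

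The level in B6 was the lowest of the strain means for 50 of the 75 members (66.7%), against 36.4% of all genes. SJL had the highest mean for 40 members (53.3%, against 39.1% of all genes), KS for 27 (36%, against 31.1%) and B6 for 8 (10.7%, against 29.9%). In complex V, 13 of 17 members were lowest in B6, in complex IV 8 of 12, in complex I 23 of 34, in complex III 4 of 8 and in complex II 2 of 4. The 3 KS arrays all lay above the 3 B6 arrays for 29 members (38.7%, against 17.8% of genes) and all below them for 3 (4%, against 13.4%), which were Ndufs5, Sdha and Uqcrfs1. Either direction together, this held for 31.1% of genes. In SJL against B6, 19 members (25.3%, against 17.9% of genes) lay wholly above B6 and 0 wholly below (against 14.9%), where 32.8% of genes did not overlap in either direction. In SJL against KS, arrays did not overlap for 5 members in the higher direction (6.67%, against 18.1%) and for 3 in the lower (4%, against 17.4%), where 35.5% of genes did not overlap.

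Averaged over the 75 members, each array's deviation from the gene means was small and unevenly spread. The B6 arrays lay at -0.07, -0.05 and -0.11 (log2), the KS arrays at 0.01, 0.04 and 0.06, and the SJL arrays at -0.07, 0.20 and -0.01. Over all genes tested, the same arrays lay at -0.02, -0.04 and 0.06 in B6, at 0.0016, 0.0087 and 0.02 in KS, and at -0.05, 0.03 and -0.0084 in SJL. For the members, all B6 values were thus below all KS values, whereas the SJL arrays spanned both. SJL replicate 2 was the highest of the 9 arrays for 50 of the 75 members (66.7%) and the lowest for 0, while over all genes it was the highest for 24.2% and the lowest for 16.1%. Complex III deviated most on this array (0.29), followed by complex I (0.24), complex V (0.14), complex II (0.14) and complex IV (0.13). Its upper quartile (383) and its epithelial marker sum (104277, against 103445 to 109183 over all arrays) lay within the range of the others. Its keratocyte marker sum (48392) was the lowest of the 9. Those of SJL replicates 1 and 3 (50297 and 50334) were also below all B6 and KS arrays (52640 to 59456). The 3′ to 5′ values of SJL replicate 2 (1.17 and 1.10) were the highest after B6 replicate 3. The part of these marker sums and 3′ to 5′ values in the result was not tested. Without SJL replicate 2, the median of the members became -0.06 in SJL against KS, with 25 of 75 positive, and 0.03 in SJL against B6, with 47 positive.

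B6 replicate 3 was the lowest array for 24 members (32%, against 12.4% of all genes). B6 replicate 1 followed with 17 (22.7%, against 12.7%) and SJL replicate 1 with 16 (21.3%, against 13.9%). Without B6 replicate 3, the median of the members in KS against B6 was 0.09, with 57 of 75 positive, beside 0.04 over all genes. Without KS replicate 3 it was also 0.09, with 57 positive, beside 0.01 over all genes. In RNA from whole punches, fewer cells of a type and less RNA per cell cannot be told apart.

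**Figure D2:**
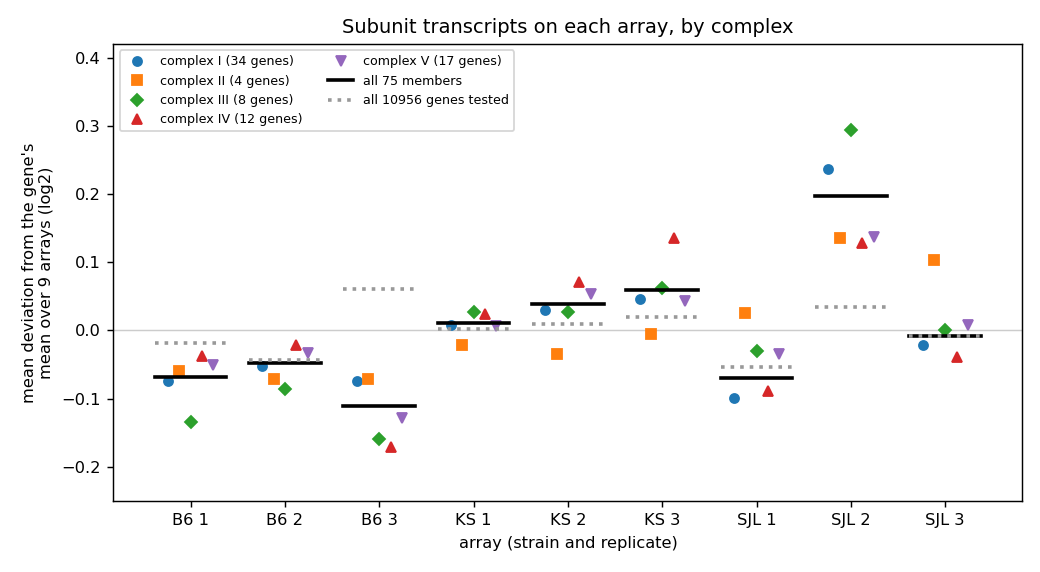
Mean deviation (log2) of the subunit genes of each complex from the gene's mean over 9 arrays, for each array; coloured symbols are complexes, black bars all 75 members and dotted grey bars all 10956 genes tested. The 3 B6 arrays lie between -0.11 and -0.05, the KS arrays between 0.01 and 0.06, and SJL replicate 2 stands alone at 0.20.

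Complex I, the NADH dehydrogenase, had 1 of 34 members called. Ndufs5, a small accessory subunit of its membrane arm, lay at 2150, 1964 and 2449 in B6, at 1849, 1383 and 1564 in KS, and at 2225, 2800 and 2336 in SJL. Every KS array was below every array of the other strains, and B6 and SJL overlapped. The difference of SJL against KS was 0.62 ± 0.14 (SE, n = 3 arrays per strain), a fold of 1.54, with a limma adjusted p of 0.0206. KS against B6 differed by -0.45 with an adjusted p of 0.123 and SJL against B6 by 0.16 with an adjusted p of 0.504, neither of which limma called. The call in SJL against KS was lost without KS replicate 2 (adjusted p = 0.0771), KS replicate 3 (0.0694), SJL replicate 2 (0.0579) or SJL replicate 3 (0.0520), while the difference stayed between 0.52 and 0.73 on leaving out any array. With no filter on dim probe sets the adjusted p was 0.0631.

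Among the complex I members that were not called, Ndufc1 and Ndufv3 had the widest differences in SJL against KS. Ndufc1, an accessory subunit, was 9262, 9462 and 9058 in KS and 6537, 8644 and 6830 in SJL, without overlap (-0.35, limma adjusted p = 0.0857). Ndufv3, an accessory subunit next to the NADH-binding module, was 7197, 8088 and 7775 in KS and 5525, 6804 and 6182 in SJL, also without overlap (-0.32, adjusted p = 0.0652). These were chosen after their values were seen. The core subunit Ndufs1, which carries iron-sulphur clusters, ranged only from 1130 to 1291 over the 9 arrays. Ndufa4, the widely expressed paralogue of Ndufa4l2, ranged from 8929 to 9682 and had strain means of 9415 ± 251 in SJL, 9374 ± 307 in KS and 9291 ± 331 in B6 (SD, n = 3). Ndufa4l2, which is known as a gene induced by low oxygen, stayed between 5.00 and 17.2, near the low end of the scale.

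Complex II, the succinate dehydrogenase, is also an enzyme of the citrate cycle. Sdhb, its iron-sulphur subunit, measured 3060, 3149 and 3213 in B6, 3811, 3928 and 3926 in KS, and 3901, 4970 and 4264 in SJL. The B6 arrays were the lowest 3, and KS and SJL overlapped. SJL against B6 differed by 0.47 ± 0.10 (SE), a fold of 1.39, with a limma adjusted p of 0.0134, and this stayed under 0.05 on leaving out any 1 of the 9 arrays (adjusted p from 0.00847 to 0.0473). It was 0.0554 when only the 6 arrays of these strains were fitted. KS against B6 differed by 0.31 (adjusted p = 0.134) and SJL against KS by 0.16 (adjusted p = 0.326).

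The other 3 subunits of complex II were not called on their brightest probe sets. Sdha, the flavoprotein with the active site for succinate, was 4303, 4026 and 4136 in B6, 3894, 3875 and 3947 in KS, and 3894, 4245 and 4055 in SJL. Its KS arrays lay below all B6 arrays and overlapped SJL (KS against B6 -0.09, limma adjusted p = 0.571). Sdhc and Sdhd, the membrane anchors, differed by 0.19 and -0.0049 in SJL against B6 (adjusted p = 0.161 and 0.980). A further probe set of Sdhc, 1435986_x_at, was 290, 306 and 333 in B6 and 460, 403 and 391 in SJL, and limma called it higher in SJL (0.42, adjusted p = 0.0231). That call was lost without B6 replicate 1 (0.0773), B6 replicate 2 (0.0650) or SJL replicate 1 (0.0566), with only the 6 arrays compared (0.0643) and with an intensity trend in the prior variance (0.0546).

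Complex III, the cytochrome bc1 complex, had the member with the widest difference that passed. Uqcrq, a small subunit known as a ubiquinone-binding protein, was 816, 848 and 783 in B6, 1289, 1499 and 1410 in KS, and 1289, 2011 and 1337 in SJL. All B6 arrays were below all KS and SJL arrays, and KS and SJL overlapped. SJL against B6 differed by 0.88 ± 0.16 (SE), a fold of 1.85, with a limma adjusted p of 0.00727. KS against B6 differed by 0.77 ± 0.16, a fold of 1.71, with an adjusted p of 0.0308, and SJL against KS by 0.12 with an adjusted p of 0.702. On leaving out any 1 array the first call was kept, with adjusted p from 0.00299 to 0.0263. The call in KS against B6 was lost on leaving out any 1 of the 6 arrays compared, with adjusted p of 0.0892, 0.0694 and 0.0936 without B6 replicates 1, 2 and 3 and 0.0602, 0.127 and 0.103 without KS replicates 1, 2 and 3, although its size stayed between 0.72 and 0.83. It was also lost with no filter on dim probe sets (0.105). The 3 other probe sets annotated to Uqcrq stayed below 7 on every array, so its difference rests on 1 probe set. That probe set carries the suffix s, which marks probes shared with other transcripts (below). The part of such transcripts in the difference of Uqcrq was not tested.

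The remaining 7 subunits of complex III were not called. Uqcrh, the acidic hinge protein near cytochrome c1, was 9326, 10780 and 9324 in B6 and 11438, 11697 and 11597 in KS, without overlap (0.24, limma adjusted p = 0.180). The core protein Uqcrc1 ranged from 2147 to 3426 with all 3 strains overlapping, and Uqcrfs1, the Rieske iron-sulphur protein, was lower in KS than in B6 on every array (2932, 2718 and 2952 against 2966, 3252 and 3111) by -0.12 (adjusted p = 0.644).

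**Figure D3:**
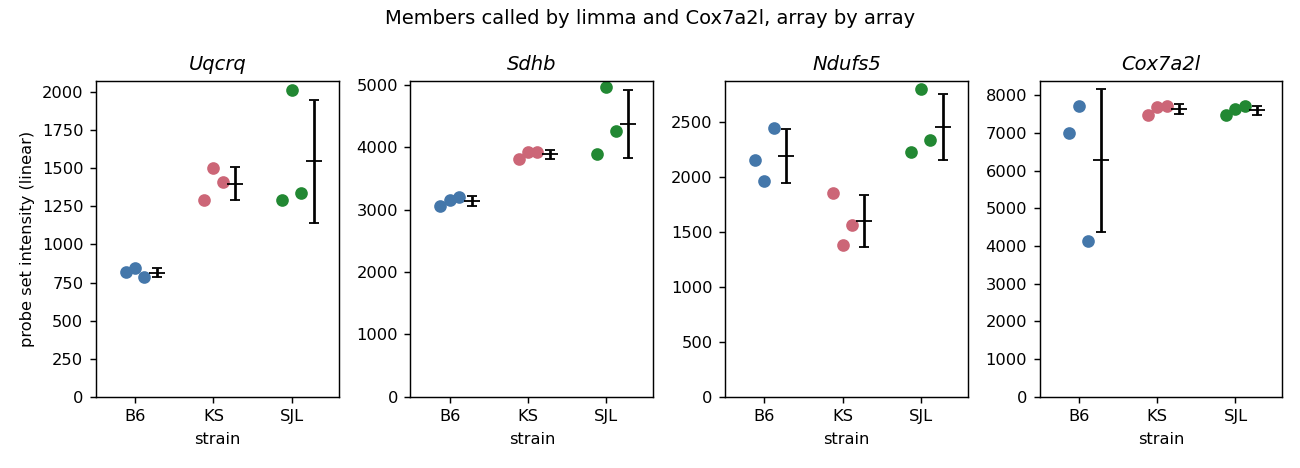
Probe set intensity (linear) of Uqcrq, Sdhb, Ndufs5 and Cox7a2l on each array by strain; points are arrays in order of replicate, horizontal ticks are strain means and bars are the SD of 3 arrays. Uqcrq and Sdhb are lowest on the 3 B6 arrays, Ndufs5 is lowest on the 3 KS arrays, and Cox7a2l is at 4121 on B6 replicate 3 and between 6984 and 7713 on the other 8 arrays.

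Complex IV, the cytochrome c oxidase, exists in tissue variants, and the widely expressed ones gave bright signals in the cornea. Cox4i1 ranged from 6446 to 8295 over the 9 arrays, Cox6a1 from 7846 to 10478, Cox6b1 from 10488 to 12070, Cox7a2 from 15813 to 17941 and Cox8a from 1421 to 1872. None of these 5 was called in any comparison (F-test adjusted p from 0.370 for Cox6a1 to 0.879 for Cox6b1 in limma), and the strain means of Cox4i1 were 8029 ± 247 in SJL, 7786 ± 115 in KS and 7377 ± 810 in B6 (SD, n = 3). The variants known from heart and skeletal muscle, Cox6a2 and Cox8b, the lung variant Cox4i2 and the testis variants Cox7b2 and Cox8c stayed between 3.81 and 5.63, near the low end of the scale. Probe sets differ in their response, so no variant is set against its partner here. A list of 11 muscle markers had 10 genes below 16 on all arrays, while the remaining one, Tnni2, lay between 1039 and 1706.

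Cox7a1, the muscle variant of Cox7a, was dim and measurable at 23.9 to 43.3, with strain means of 29.3 ± 8.4 in SJL, 35.4 ± 7.0 in KS and 27.5 ± 2.1 in B6 (SD, n = 3, limma F-test adjusted p = 0.441). Cox6b2, the testis variant of Cox6b, had the smallest F-test p of complex IV and was not called (adjusted p = 0.0665). It was 9.10, 18.6 and 14.7 in B6, 22.6, 28.8 and 43.1 in KS, and 14.5, 21.0 and 18.0 in SJL. All KS arrays lay above all others, and the highest was KS replicate 3, the array with the photoreceptor signal. KS against B6 was 0.77 with all arrays (adjusted p = 0.0765) and 0.58 without KS replicate 3 (adjusted p = 0.207). Cox7c, whose probe set lay at only 115 to 229, was also highest on KS replicate 3, by 0.43 over the next array. Of the 12 photoreceptor genes on the array, 2 stayed below 16 on all arrays, and the part of this signal in the values of Cox6b2 and Cox7c was not tested.

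Cox7a2l showed the widest gap of any member between 1 array and the others. It was 6984, 7713 and 4121 in B6, 7470, 7695 and 7703 in KS, and 7466, 7620 and 7708 in SJL. B6 replicate 3 lay 0.76 (log2) below the next lowest array, and the other 8 arrays lay between 6984 and 7713. Its 2 other probe sets were lowest on the same array (4027 against up to 7399, and 2816 against up to 6007). The low value on that array accompanied the raised 3′ to 5′ values given above, whose part was not tested. Cox7a2l was not called (KS against B6 0.33, limma adjusted p = 0.427), and this difference was 0.05 without B6 replicate 3.

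An array 1 or more (log2) away from all others was found for 0 of 75 members, against 142 of 10956 genes (1.3%). After Cox7a2l, the widest gaps were 0.45 for Cox6b2 and 0.43 for Cox7c, both high on KS replicate 3, 0.43 for Ndufa9, low on B6 replicate 3 (3391, against 4559 to 5043 on the others), and 0.42 for Uqcrq, high on SJL replicate 2. Uqcr11, a small subunit of complex III, was also low on B6 replicate 3 (1552, gap 0.35), and the complex I subunit Ndufb6 was high on SJL replicate 2 (4759, against 3053 to 3749 on the others, gap 0.34). All 7 of these gaps lay on B6 replicate 3, KS replicate 3 or SJL replicate 2.

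Complex V, the ATP synthase, had 0 of 17 members called by the limma F-test, and 0 at an unadjusted p under 0.05, against 19.4% and 33.9% of genes. Its catalytic subunit Atp5b varied from 6467 to 6923 over all 9 arrays, and Atp5a1, the other large subunit of the head, from 11542 to 12814. The smallest F-test p belonged to Atp5j2, a small subunit of the membrane part, with 8361, 8136 and 7240 in B6, 9047, 9280 and 9217 in KS, and 8705, 9943 and 9029 in SJL. Its B6 arrays were the lowest 3 (KS against B6 0.22, adjusted p = 0.238, SJL against B6 0.22, adjusted p = 0.145, F-test adjusted p = 0.174).

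The ring of the ATP synthase that turns with the proton flow is built from the same mature protein made by 3 genes. Atp5g1 was 3990, 4220 and 3235 in B6, 4157, 4936 and 4420 in KS, and 4398, 5101 and 4716 in SJL, where SJL lay above B6 without overlap (0.32, limma adjusted p = 0.128). Atp5g2 had strain means of 5374 ± 351 in SJL, 5824 ± 499 in KS and 4859 ± 680 in B6 (SD, n = 3, F-test adjusted p = 0.309). Atp5g3 lay between 12806 and 13574 (F-test adjusted p = 0.970). None of the 3 genes was called.

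The choice of probe set mattered for single genes. Probe sets for subunit genes can also read processed pseudogenes or related transcripts, which are common for this class, and of the 82 probe sets used, 11 carried the suffix s and 12 the suffix x, which mark probes shared with other transcripts. Beside them, the members had 87 further probe sets, of which 67 could be tested, and limma's F-test called 12 of these, in 9 genes. Among the 12 are probe sets of Uqcr10 that passed the filter only through their B6 values (below). Over all 142 member probe sets tested the F-test called 15 (10.6%), against 19.4% of all probe sets. When the probe sets of each gene were averaged instead, 71 members could be tested and limma called 5 in SJL against KS, Ndufs5 higher and Atp5c1, Ndufc1, Ndufc2 and Ndufv3 lower, and 6 in SJL against B6. In that fit 15.7% and 17.4% of all genes were called, above the members' share. The genes below were chosen after their values were seen.

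For Uqcr10, a small subunit of complex III, the brightest probe set was 2727, 2638 and 2194 in B6, 3380, 3401 and 3365 in KS and 2678, 3553 and 2634 in SJL, with KS above B6 by 0.43 (limma adjusted p = 0.125). A dim probe set of the same gene, 1434340_at, was 83.8, 62.0 and 40.5 in B6 and between 4.61 and 4.75 on the 6 KS and SJL arrays. It was thus above the low end of the scale in B6 alone, and limma called it lower in KS (adjusted p = 0.000195) and in SJL (adjusted p = 9.97e-05), each against B6. Another, 1434341_x_at, was 21.2, 23.8 and 16.7 in B6 and between 5.95 and 6.27 in the others, and was called in both comparisons (adjusted p = 0.000737 and 0.000336). The KS and SJL values of both lie near the low end of the scale, so the size of these differences is set by the pseudocount. In KS against B6, for example, 1434340_at went from -1.02 with a pseudocount of 50 to -3.41 with a pseudocount of 1, and 1434341_x_at from -0.33 to -1.59. The 2 dim probe sets were called higher in B6, while the brightest one was not called. Both dim ones passed the filter on dim probe sets only through their B6 values. Their calls are therefore no independent support for a strain difference.

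For Ndufa12, an accessory subunit of complex I, the brightest probe set did not differ by limma (SJL against KS -0.025, adjusted p = 0.913). Its probe set 1418814_s_at was 5434, 6517 and 5716 in SJL, 3656, 4025 and 3800 in KS and 3696, 3448 and 2857 in B6, so every SJL array lay above every other. The differences were 0.62 against KS (adjusted p = 0.00898) and 0.82 against B6 (adjusted p = 0.00205). Its probe set 1433513_x_at was called the same way by 0.32 and 0.39, and its 3 KS arrays held the same value, 5467. The first of these calls was kept only without B6 replicate 1 or B6 replicate 3 (adjusted p up to 0.119), and the second was lost without SJL replicate 3 (0.0628).

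Limma called further probe sets of 6 members lower in SJL, with KS as the reference. The differences were -0.90 for a dim probe set of Ndufs4, a subunit of complex I whose loss causes a Leigh-like disease in mice, -0.83 for one of Atp5c1, the central stalk of the ATP synthase, -0.69 for Ndufc1, -0.58 for Ndufv1, -0.53 for Ndufs8, and -0.53 and -0.40 for Ndufc2. On their brightest probe sets the same genes differed by 0.03 for Ndufs4, -0.0089 for Atp5c1, -0.35 for Ndufc1, -0.25 for Ndufv1, -0.28 for Ndufs8 and -0.04 for Ndufc2, and none of these was called. The calls of Ndufv1 and Ndufs8 were lost without KS replicate 2 (adjusted p = 0.0588 and 0.0626) or KS replicate 3 (0.0527 and 0.0613). That of Atp5c1 was lost without KS replicate 2 (0.0569) or SJL replicate 3 (0.0532), and where dim probe sets were kept in the fit (0.0547). The smaller difference of Ndufc2 lost its call without replicate 2 or 3 of KS (0.0815 and 0.0857) and without replicate 1 or 3 of SJL (0.0526 and 0.0832). The dim Ndufs4 probe set had 74.8, 117 and 83.9 in B6, 44.4, 60.7 and 62.3 in KS and 22.7, 26.0 and 26.1 in SJL, in 3 groups without overlap, while the brightest one ran from 3746 to 4707. Its difference in SJL against KS was -0.49 with a pseudocount of 50. Another tested probe set of Ndufs4, 1438166_x_at, ran the other way, with 1294, 1145 and 1221 in B6, 1344, 1089 and 1239 in KS and 1499, 1945 and 1376 in SJL, above both without overlap, and was not called (0.38 against KS, adjusted p = 0.117, and 0.38 against B6, adjusted p = 0.113).

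**Figure D4:**
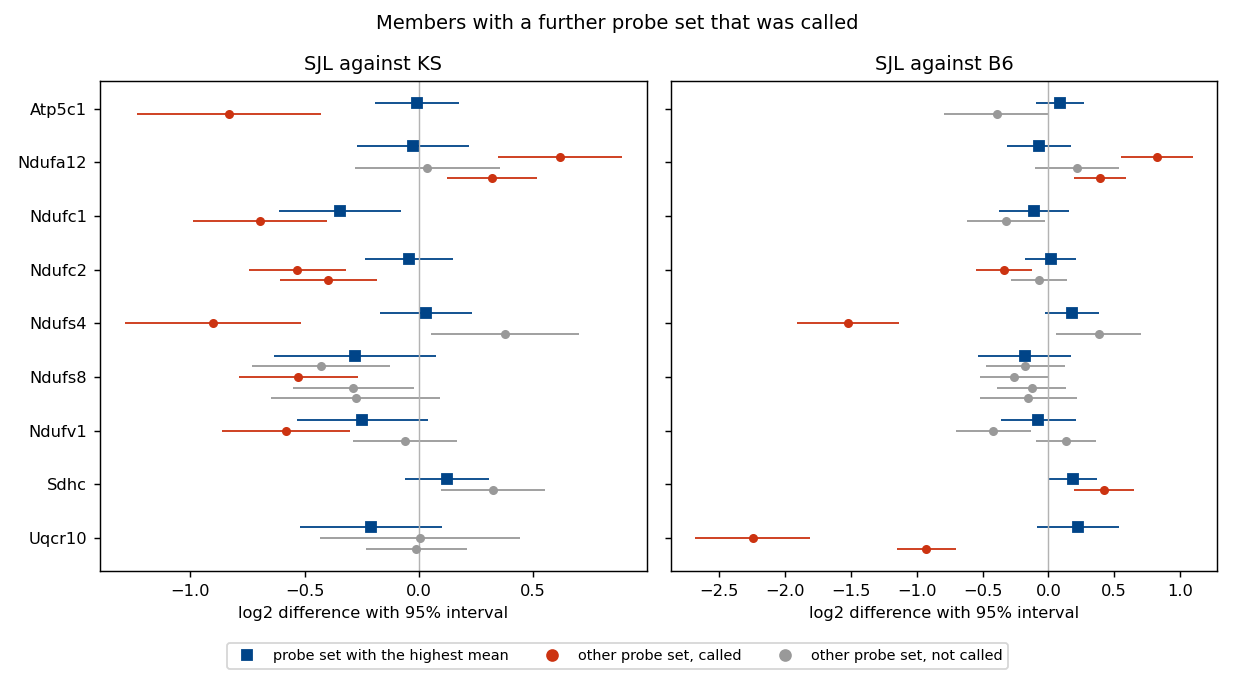
Log2 differences with 95% intervals of all tested probe sets of 9 members that had a further probe set called, for SJL against KS and SJL against B6; squares are the probe set with the highest mean, circles the others, red where limma called that comparison. Red circles of Uqcr10 lie below 0 in SJL against B6, at a distance that the pseudocount sets, with the square at 0.22. These circles passed the filter on dim probe sets only through their B6 values. The red circles of Ndufa12 lie above 0 with its square near 0.

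Genes that build, feed or regulate the complexes were read from 5 lists on the same arrays. Of 42 tested assembly and import factors, limma's F-test called 6 (14.3%), of 16 electron, ATP and proton carriers 3 (18.8%), of 24 genes of the citrate cycle and pyruvate entry 1 (4.17%), of 16 genes of glycolysis and lactate 3 (18.8%), and of 18 regulators of mitochondrial biogenesis 1 (5.56%), against 19.4% of all genes. In SJL against KS, the calls higher and lower were 3 and 2 for the assembly factors, 2 and 0 for the carriers, 1 and 0 for the citrate cycle, 0 and 1 for glycolysis and 2 and 0 for the regulators, where 14.9% of all genes were called. KS against B6 gave 0 higher and 1 lower among the assembly factors and 0 calls in the other 4 lists, where 6.27% of genes were called. SJL against B6 gave 3 and 2, 2 and 0, 1 and 0, 1 and 2, and 1 and 0 in the same order, where 16.1% of genes were called.

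Some of these genes, such as Ndufaf1, Slc16a1, Hk2 and Ldhb, had wider strain differences than any subunit gene read by its brightest probe set. The widest of those was 0.88 for Uqcrq, and Coa5 and Sdhaf3 stayed below it. Ndufaf1, an assembly factor of complex I, had means of 96.1 ± 17.0 in SJL, 207 ± 22 in KS and 266 ± 41 in B6 (SD, n = 3), or -1.04 in SJL against KS (limma adjusted p = 0.00269). Coa5, an assembly factor of complex IV, was lower in KS (1508 ± 96) than in B6 (2639 ± 279) and SJL (2392 ± 156), with -0.80 in KS against B6 (adjusted p = 0.00269) and 0.66 in SJL against KS (adjusted p = 0.00359). Sdhaf3, an assembly factor of complex II, was higher in SJL (294 ± 90) than in KS (173 ± 17) by 0.69 (adjusted p = 0.0479). These calls of Ndufaf1 and Coa5 held on leaving out any 1 of the 9 arrays. With the probe sets of Coa5 averaged, KS against B6 became -0.37 and was not called (adjusted p = 0.104). The call of Sdhaf3 held only without SJL replicate 3 on leaving out 1 array (adjusted p up to 0.141 without KS replicate 3). With the probe sets of Sdhaf3 averaged it was 0.36 (0.0532), and it was 0.40 with array weights (0.0188). It was also lost with no filter on dim probe sets (0.149), with a pseudocount of 1 (0.0506) or 50 (0.0519), with an intensity trend in the prior variance (0.0547) and with only the 6 arrays compared (0.0906).

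Among the enzymes around the chain, Nnt, which makes mitochondrial NADPH from the proton gradient, had means of 3563 ± 392 in SJL, 2294 ± 253 in KS and 2494 ± 319 in B6 (SD, n = 3), with 0.63 in SJL against KS (limma adjusted p = 0.0141, and 0.0570 without KS replicate 3). C57BL/6J mice are known to carry a deletion within Nnt that removes the protein, and a signal from this probe set does not show whether the transcript is intact. Etfb, which feeds electrons from fatty acid oxidation, was higher in SJL (6391 ± 319) than in B6 (4446 ± 308) by 0.52 (adjusted p = 0.0102). Sucla2, a subunit of succinyl-CoA synthetase, was higher in SJL (4966 ± 680) than in KS (2809 ± 85) by 0.81 (adjusted p = 0.00440), and by 0.27 with its probe sets averaged (adjusted p = 0.0268). Dhodh, which passes electrons to ubiquinone from pyrimidine synthesis, was called by the F-test (adjusted p = 0.0434) and in none of the 3 comparisons, with means of 44.7 ± 9.4 in SJL, 27.2 ± 2.5 in KS and 47.4 ± 9.9 in B6.

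On the side of glycolysis, Slc16a1, the lactate transporter MCT1, was lowest in SJL (252 ± 8, against 675 ± 18 in KS and 567 ± 92 in B6, SD, n = 3), by -1.38 against KS (limma adjusted p = 9.37e-05), which became -0.69 with its probe sets averaged (adjusted p = 0.000312). Hk2, a hexokinase bound to mitochondria, was lower in SJL than in B6 by -1.04 (adjusted p = 0.00585), and Ldhb, a subunit of lactate dehydrogenase, was higher by 1.04 (adjusted p = 0.00940). Tfb1m and Tfb2m, factors for the ribosome and the transcription of mitochondria, were higher in SJL than in KS by 0.63 (adjusted p = 0.0437) and 0.46 (adjusted p = 0.0148). The call of Tfb1m held on leaving out 1 array only without SJL replicate 1 (adjusted p up to 0.141), and was lost where dim probe sets were kept in the fit (0.131) and with only the 6 arrays compared (0.0860). That of Tfb2m was lost without KS replicate 1 (0.0558) or KS replicate 3 (0.0617), and Tfb2m had means of 760 ± 54 in SJL, 551 ± 40 in KS and 464 ± 35 in B6. Ppargc1a, the coactivator known for driving mitochondrial biogenesis, was too dim to be tested (5.30 to 13.3).

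The genes called lie on chromosome 4 (Ndufs5 and Sdhb) and chromosome 11 (Uqcrq). Among the 10 nearest tested genes on each side, limma called 1 of 20 around Ndufs5 in SJL against KS, 4 of 20 around Sdhb and 1 of 20 around Uqcrq in SJL against B6, and 0 of 20 around Uqcrq in KS against B6, where 14.9%, 16.1% and 6.27% of all genes were called in these comparisons. The genes whose levels ran most like the mean of the 75 members over the 9 arrays were Vcpkmt (Pearson r = 0.98), Snrpg (0.98), Bola2 (0.98), Ten1 (0.97) and Timm13 (0.97), of which Timm13 takes part in the import of proteins into mitochondria. These correlations describe 9 arrays that share strains and, on SJL replicate 2, 1 high array, and they carry no test.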

How the data were processed

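The deposited table held 1 intensity per probe set and array as linear values. Per their near-equal upper quartiles, the authors had summarised the probes and scaled the arrays, by a method not given in the sources used here. Affymetrix labelling is per the labels' protocols. Of 45101 probe sets, 64 were controls, and 34945 of the others carried 1 gene symbol in the platform annotation. All 82 members matched the RefSeq table (GRCm38.p6) and 0 symbols changed. Of 10 probe sets that named a member among several genes none was used, and Cox7b was not analysed here.

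Log2(intensity + 10) was fitted with limma 3.58.1 in R 4.3.3, with 1 mean per strain over 9 arrays (6 residual degrees of freedom), 3 contrasts and a moderated F-test. Probe sets below the median of mean log2 values were left out, and Benjamini-Hochberg adjustment ran over the 22519 that stayed. A call is an adjusted p under 0.05. No read depth exists for arrays, and 3 per strain limit the precision. The labels give each array as 1 mouse, so replicates are separate animals. The fit was checked on simulated data.

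The text names members that were called or outlying, tissue variants with their partners, the member of each complex with the smallest F-test p, up to 3 called genes of each other list with Nnt, and the 5 genes most like the members. Members, lists and this rule were chosen with earlier results of these data known. Alternatives changed the filter, scaling, pseudocount, variance prior, array weights, block, arrays fitted and choice of probe set, and left out each array.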

Additional observations from a re-analysis of the deposited data

How the results depend on the processing

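With 3 arrays per strain and a pseudocount that shrinks dim values, small counts of calls moved with most choices, and the cause was not tested unless stated. In SJL against KS the count of 1 became 0 with no filter on dim probe sets, 2 with a pseudocount of 50, 3 with an intensity trend in the prior variance, 17 with array weights, 5 with probe sets averaged by gene, 5 with probe sets without a suffix (56 members tested), and 0 to 2 on leaving out 1 array. In KS against B6 the count of 1 became 0 with no filter, 5 with array weights and 0 to 2 on leaving out 1 array. In SJL against B6 the count of 2 became 6 with array weights, 1 with only the 6 arrays compared, 6 with probe sets averaged and 2 to 3 on leaving out 1 array. The F-test count of 3 became 2 with no filter, 5 with the trend, 19 with array weights, 7 with probe sets averaged, 7 with probe sets without a suffix and 1 to 5 on leaving out 1 array. Under array weights, whose estimate did not reach its convergence tolerance, 42.3% of all genes were called in SJL against KS. The shares were 11.1% in KS against B6, 33.2% in SJL against B6 and 47.6% by the F-test. With probe sets averaged they were 15.7% in SJL against KS, 17.4% in SJL against B6 and 21.3% by the F-test. With probe sets without a suffix they were 15.5% in SJL against KS and 19.8% by the F-test, and with the trend 15.9% and 21.7%. The members' share was below that of all genes in each of these. Medians of the members ran from -0.0551 to 0.0438 in SJL against KS, from 0.0849 to 0.1232 in KS against B6 and from 0.0303 to 0.1567 in SJL against B6 on leaving out 1 array.

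The fit above did not pair mice by replicate number, and correlations between so few arrays cannot exclude such a pairing. Of 9 correlations between deviations of arrays with the same number, from -0.27 to 0.26, 3 exceeded 0.1. Those between arrays with different numbers ran from -0.36 to 0.42. Of 18 arrays' best matches, 9 had their own number. With the replicate block, 0 members were called in SJL against KS (Ndufs5, adjusted p = 0.0506) and 2 in KS against B6 (Uqcrq and Cox6b2).

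For single genes named in the text, 2186 of 2377 values stayed the same, 116 lost the call, 46 gained it and 29 moved, and 0 reversed a called direction. Called values that stayed the same kept their call and direction. Values not called stayed the same if they remained uncalled within the standard error of the fit above, whatever their direction, and moved if beyond it. Quantile normalization and centring of arrays moved the median of all genes by less than 0.1.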
